A study of Mus musculus with 13 samples.

Results

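Ephx1, Ddit4, Sesn1, Sesn2, Gls2, Gpx1, Fdxr and Rrm2b are p53 targets that handle redox and metabolic stress. They are 8 of the 24421 genes in the RNA counts of mouse ES cells induced to make CTCF S224E. They were chosen by symbol from known p53 biology, with the doxycycline (dox) contrast of these same libraries already in view, so every +dox against −dox value of these genes is a description and supports nothing by itself. All 8 had reads in every library, between 106 and 6734 counts, so the filter on low counts removed none of them.

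The 4 RNA libraries came from F1-2.1 mouse ES cells, a CAST/Ei x 129/Sv/Jae hybrid line, maintained over γ-irradiated MEF feeders (embryonic fibroblasts that no longer divide). All 4 carry the same integrated Tet-on CTCF S224E transgene in 1 clone, A2, which encodes CTCF with a serine replaced by glutamate to mimic a phosphate. The 2 +dox libraries had 1 µg/mL dox for 6 days and the 2 −dox libraries had none. RNA from cells given dox but lacking the transgene was not analysed here, so dox and CTCF S224E cannot be told apart as sources of a difference, and what was seen in 1 clone may belong to that clone.

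p53 is a transcription factor that is held low by its ubiquitin ligase Mdm2 and accumulates when cells are stressed. Besides its targets that stop the cell cycle or start apoptosis, it raises a set of genes that limit oxidants, slow growth signalling and support mitochondria and DNA repair. Several of these genes also answer to other stress factors, such as HIF1 (hypoxia) for Ddit4, ATF4 (amino acid shortage) for Ddit4 and Sesn2, and NRF2 (oxidants) for Ephx1, so their RNA levels are not a readout of p53 alone. Mouse ES cells hold much p53 even when unstressed.

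The libraries held between 22899107 and 30206085 counted exon reads, of which the 10 most abundant genes took at most 2.63%. The pluripotency genes Pou5f1, Nanog and Sox2, which define ES cells, lay between 499 and 1254 CPM (the reads of a gene in each megaread of its library, with library sizes adjusted by TMM) in every library. Ctcf itself was at 327.1 and 329.3 CPM with dox and 295.2 and 304.3 CPM without, and the counts do not separate the transgene from the endogenous gene. The 24 fibroblast markers, listed because feeder cells are fibroblasts, summed to 2539 CPM in +dox replicate 1. The sum was 858 to 988 CPM in the other 3 libraries, with none of the 24 at 0 in any library. +dox replicate 1 therefore stood apart, and each member is given with and without it. In bulk RNA, fewer cells of a type and less RNA per cell cannot be told apart.

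The promoters of the 2 genes that were called (adjusted p-value under 0.01) are shown because 1 was higher and the other lower with dox. They are the 250 bases before the RefSeq start on GRCm38.p6, a different build from that of the counts. Capitals mark matches, on either strand, to 4 short motifs: CCAAT (bound by NF-Y), TATAAA (the TATA box), ACGTG (the core bound by HIF1 and by other factors) and TGANNNNGC (the core bound by NRF2 with its partners). A match shows the letters alone, at any position in the window, so a TATAAA here need not be a working TATA box. No overlap between the motifs was found in either window.
Ephx1, chr1:181017570-181017819, minus strand: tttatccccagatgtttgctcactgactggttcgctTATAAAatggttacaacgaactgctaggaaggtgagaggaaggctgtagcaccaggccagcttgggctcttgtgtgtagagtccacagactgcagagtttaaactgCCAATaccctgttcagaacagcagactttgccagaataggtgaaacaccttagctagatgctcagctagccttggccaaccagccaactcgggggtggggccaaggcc
Ddit4, chr10:59951771-59952020, minus strand: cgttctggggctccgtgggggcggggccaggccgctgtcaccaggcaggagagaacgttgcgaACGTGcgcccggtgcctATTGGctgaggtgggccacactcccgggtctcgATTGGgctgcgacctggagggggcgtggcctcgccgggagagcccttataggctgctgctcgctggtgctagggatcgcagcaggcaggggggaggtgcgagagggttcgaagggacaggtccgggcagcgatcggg
The Ephx1 window held a TATAAA at -214 to -209 and a CCAAT at -108 to -104, counted in bases before the start. The Ddit4 window held an ACGTG at -187 to -183 and CCAAT on the opposite strand (printed as ATTGG) at -170 to -166 and at -137 to -133. Among 32851 mouse promoters of the same 300-base length, which adds 50 bases after the start, 37.4% held CCAAT, 13.6% TATAAA, 19.6% ACGTG and 41.3% TGANNNNGC, so none of these matches is rare. The promoters also differed in CpG content, with 5 CpG in that of Ephx1 and 26 in that of Ddit4, where the median over all promoters was 7 CpG.

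Of the 8 genes, 6 had a promoter entry, with 2 entries for Sesn1; Gls2 and Rrm2b had none. A p53 half-site, the decamer that p53 binds in pairs, was present in 8.36% of all promoters. Among the members it was matched once, in the second Sesn1 window (chr10:41887189-41887438, plus strand) at -173 to -164, shown here in capitals with 10 bases on each side.
Sesn1: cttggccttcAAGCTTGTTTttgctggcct
The first Sesn1 window (chr10:41810324-41810573, plus strand) held no half-site. Which of the 2 starts belongs to the counted transcript was not checked, since the builds differ. p53 often binds its targets outside such windows, so a window without a match says only that these letters are not in it. The other windows held CCAAT in Sesn1, Sesn2 and Fdxr, ACGTG in Gpx1 at -183 to -179, and TGANNNNGC in Sesn2 at -36 to -28.

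The levels spanned a wide range in the cultures that had no dox. Per kilobase of exon, the −dox means were 200.6 CPM per kb for Gpx1, 70.4 for Sesn2, 69.2 for Ddit4, 16.4 for Ephx1, 11.7 for Gls2, 9.82 for Fdxr, 4.13 for Sesn1 and 1.29 for Rrm2b. Gpx1 was thus 155.6 times as abundant per kb as Rrm2b. Sesn2 and Ddit4 could not be placed in order, since the Sesn2 libraries (63.6 and 77.2 CPM per kb) enclosed both Ddit4 libraries (65.3 and 73.0), whereas the −dox values of the other neighbours did not overlap. Gls2 and Fdxr were the closest of those, with 11.3 and 12.1 against 8.56 and 11.1 CPM per kb. Without the length, Gls2 and Ephx1 could not be placed in order, with −dox values of 27.6 and 29.6 CPM for Gls2 inside the 26.1 to 30.5 CPM of Ephx1. The 2 sestrins thus differed widely in level, with Sesn2 far above Sesn1.

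**Figure D1:**
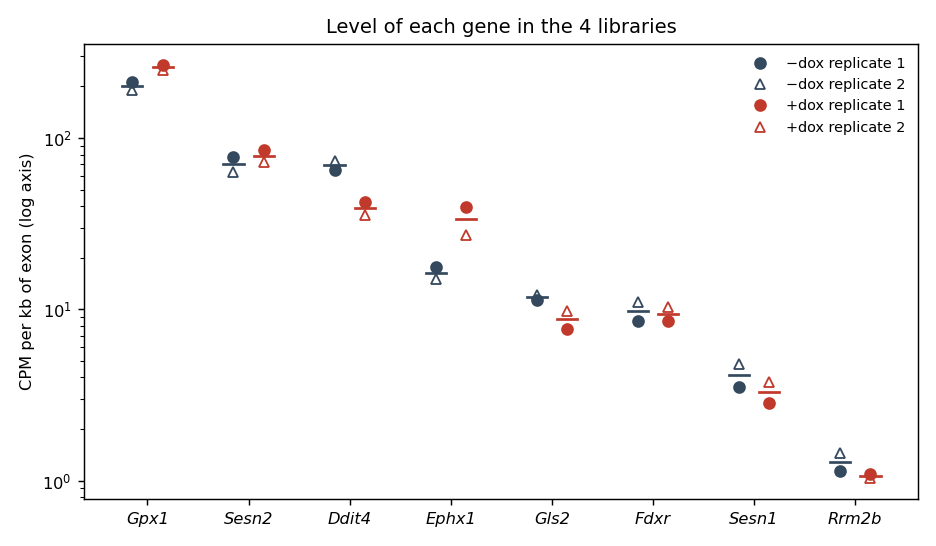
Level of the 8 genes in CPM per kb of exon (log axis) in the −dox (dark) and +dox (red) libraries, with filled circles for replicate 1, open triangles for replicate 2 and a bar at the mean of 2 libraries. The genes run from Gpx1, at 200.6 CPM per kb without dox, down to Rrm2b at 1.29, and the colours separate fully for Gpx1, Ddit4, Ephx1, Gls2 and Rrm2b.

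With dox, 3 of the 8 genes were higher (Ephx1, Gpx1 and Sesn2) and 5 were lower (Ddit4, Gls2, Sesn1, Rrm2b and Fdxr), in both replicates in each case. Of the 13911 genes that averaged 1 CPM or more, 69.7% had the same sign in both replicates. Ephx1 and Ddit4, 2 of the 8, were called by edgeR's quasi-likelihood test at an adjusted p-value under 0.01. Over all 20044 genes tested the called share was 0.599%, with 0.0798% called higher, as Ephx1 was, and 0.519% called lower, as Ddit4 was. DESeq2 called the same 2 genes, where it called 1.87% of all genes. An unadjusted p under 0.05 by edgeR was reached by 4 of the 8, Ephx1, Ddit4, Gpx1 and Gls2, against 17.8% of all genes. The +dox and −dox libraries did not overlap for 5 of the 8, 2 higher and 3 lower, and did not overlap for 53.8% of the 13911 genes. Since the contrast was known when the genes were chosen, nothing is read from these shares. The median log2 fold change of the 8 was -0.17 and that of all genes tested was 0.007. The median of the 8 moved with single libraries, to -0.05 without +dox replicate 1, -0.23 without +dox replicate 2, -0.34 without −dox replicate 1 and -0.03 without −dox replicate 2. A p-value that missed the threshold does not show that a gene did not differ.

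Ephx1, microsomal epoxide hydrolase, turns reactive epoxides into diols. The gene lies on chromosome 1 (mm9 chr1:182919687-182947700, minus strand, 9 exons). Its level was 68.7 and 47.1 CPM in the +dox libraries of replicates 1 and 2, and 30.5 and 26.1 CPM in the −dox libraries. Both +dox libraries lay above both −dox libraries, and the +dox libraries also lay far from each other. The means were 57.9 ± 15.2 and 28.3 ± 3.10 CPM (SD, n = 2), a fold of 2.05. The fitted log2 fold change was 1.03 ± 0.17 (SE), with an adjusted p = 0.00901 by edgeR and 1.49e-05 by DESeq2. Within replicate 1 the log2 ratio was 1.17 (95% exact interval of the counts 1.05 to 1.29) and within replicate 2 it was 0.85 (0.71 to 0.99). The replicates differed by more than counting error, and the larger value was that of the replicate whose +dox library had the higher sum of fibroblast markers. Without +dox replicate 1 the log2 fold change of Ephx1 was 0.73. With 1 +dox library left, the spread in such a fit comes from the −dox pair alone. Its p-values are therefore not used in these paragraphs, and its calls enter only the closing section on processing.

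Gpx1, the selenium-dependent peroxidase of the cytosol and mitochondria, uses glutathione to reduce hydrogen peroxide. It is a short gene of 2 exons on chromosome 9 (chr9:108241411-108242673, plus strand). Its level was 278.8 and 260.2 CPM with dox and 220.5 and 197.2 CPM without. All +dox values were above all −dox values, with a smaller step than for Ephx1. The means were 269.5 ± 13.1 and 208.8 ± 16.5 CPM (SD, n = 2), a fold of 1.29 and a log2 fold change of 0.37 ± 0.095 (SE). This did not pass the threshold in edgeR (adjusted p = 0.0610) or DESeq2 (0.0221). The log2 ratios within replicates were 0.34 (0.29 to 0.39) and 0.40 (0.35 to 0.46), and without +dox replicate 1 the value was 0.32, so that library moved Gpx1 little.

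Ddit4, also called REDD1, restrains the growth kinase mTORC1 by way of the TSC complex when oxygen or energy is short. It is a compact gene of 3 exons on chromosome 10 (chr10:59412423-59414518, minus strand). Its level was 71.5 and 59.8 CPM with dox and 109.7 and 122.6 CPM without. Both +dox libraries were far below both −dox libraries. The means were 65.6 ± 8.27 and 116.2 ± 9.11 CPM (SD, n = 2), so that the +dox level was 0.565 of the −dox level. The fitted log2 fold change was -0.82 ± 0.12 (SE), with an adjusted p = 0.00332 by edgeR and 7.94e-07 by DESeq2. The log2 ratio was -0.62 (-0.71 to -0.53) within replicate 1 and -1.04 (-1.13 to -0.94) within replicate 2. Here too the replicates differed by more than counting error, but with the larger change in replicate 2. Without +dox replicate 1 the log2 fold change of Ddit4 was -0.96.

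Sesn2, a leucine sensor that restrains mTORC1 through GATOR2 and helps keep peroxiredoxins active, lies on chromosome 4 (chr4:132048722-132066371, minus strand, 10 exons). Its level was 223.8 and 190.8 CPM with dox and 204.0 and 168.1 CPM without. The +dox and −dox libraries overlapped, although the +dox library was the higher of each replicate. The log2 fold change was 0.16 ± 0.11 (SE, adjusted p = 0.538 by edgeR), and it was 0.03 without +dox replicate 1. Sesn1, its p53-induced paralogue, lies on chromosome 10 (chr10:41530380-41628242, plus strand, 10 exons). Its level was 9.02 and 11.9 CPM with dox and 11.1 and 15.1 CPM without, again with overlap between the conditions. The log2 fold change of Sesn1 was -0.32 ± 0.22 (SE, adjusted p = 0.486 by edgeR), and -0.14 without +dox replicate 1. The sestrins and Ddit4, which all act to hold back mTORC1, thus had values of different sign, and Ddit4 alone of the 3 was called.

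Gls2, the liver-type mitochondrial glutaminase that makes glutamate from glutamine, lies on chromosome 10 (chr10:127631691-127647060, plus strand, 18 exons). Its level was 18.7 and 23.9 CPM with dox and 27.6 and 29.6 CPM without. The conditions did not overlap, but the log2 fold change of -0.42 ± 0.16 (SE) did not pass the threshold (adjusted p = 0.181 by edgeR and 0.187 by DESeq2). The log2 ratio was -0.56 (-0.73 to -0.39) in replicate 1 and -0.31 (-0.47 to -0.15) in replicate 2, and the fitted value without +dox replicate 1 was -0.26. Gls2 shares exon bases with Spryd4 on the opposite strand, and the use of strand in the counting is not given in the sources used here, so reads of the 2 genes may be mixed. Spryd4, looked up after the values of Gls2 were seen, had a log2 fold change of 0.10 ± 0.14 (SE).

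Fdxr, ferredoxin reductase, passes electrons from NADPH to mitochondrial ferredoxins for steroid and iron-sulfur cluster synthesis. It lies on chromosome 11 (chr11:115129339-115138283, minus strand, 12 exons). Its level was 15.7 and 19.0 CPM with dox and 15.8 and 20.5 CPM without. The replicates differed more than the conditions, and the log2 fold change was -0.06 ± 0.18 (SE, adjusted p = 0.894 by edgeR). Its sign was not stable, with a value of 0.07 once +dox replicate 1 was left out and 0.13 once −dox replicate 2 was.

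Rrm2b, the p53-inducible small subunit of ribonucleotide reductase, supplies deoxynucleotides for repair and for mitochondrial DNA in cells that are not in S phase. It lies on chromosome 15 (chr15:37853708-37890810, minus strand, 9 exons). Its level was 4.89 and 4.64 CPM with dox and 5.11 and 6.50 CPM without. The conditions did not overlap, by a narrow margin, at only 106 to 163 counts per library. The log2 fold change was -0.28 ± 0.24 (SE, adjusted p = 0.608 by edgeR), with -0.06 (-0.43 to 0.30) in replicate 1 and -0.48 (-0.85 to -0.12) in replicate 2. Without +dox replicate 1 the fitted value was -0.32. The intervals were the widest of the 8 genes, and the counts the lowest.

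**Figure D2:**
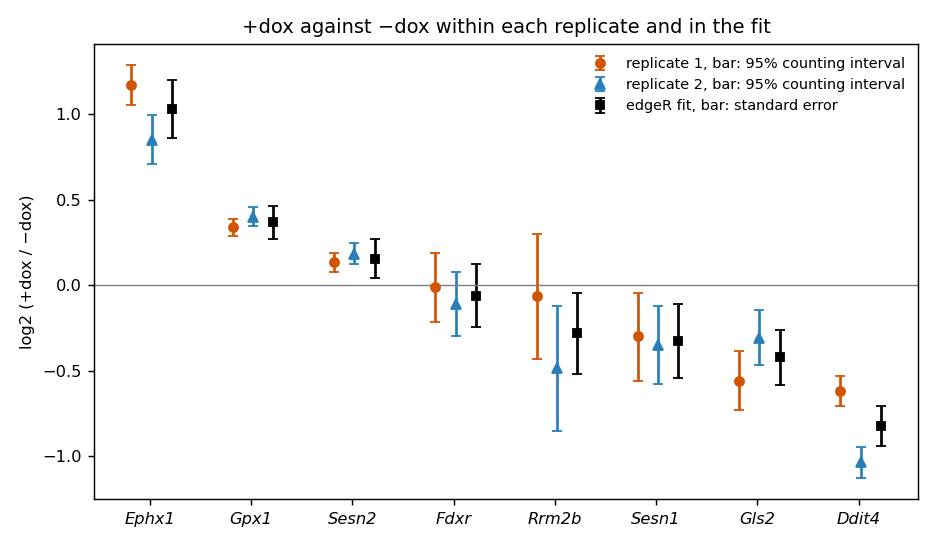
log2 ratio of +dox to −dox for each gene within replicate 1 (orange circles) and replicate 2 (blue triangles), with 95% exact intervals that cover counting error only, beside the edgeR fit (black squares, bar: standard error). Ephx1 is highest at 1.03 and Ddit4 lowest at -0.82 in the fit, and only for these do the intervals of replicates 1 and 2 lie apart.

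The paralogues and partners of the 8 genes gave a further view of most steps, and none of those named here was called. Ephx2, the soluble epoxide hydrolase, was at 11.4 and 13.5 CPM with dox against 16.3 and 15.5 CPM without, on the other side of 0 from Ephx1 (log2 fold change -0.35 ± 0.18, SE). Gpx4, which reduces lipid peroxides, had a log2 fold change of -0.52 ± 0.18 (SE) where Gpx1 had 0.37, with a log2 ratio of -0.90 in replicate 1 and -0.16 in replicate 2. Ddit4l, the paralogue of Ddit4, was at 20.6 and 19.8 CPM with dox and 15.1 and 12.4 CPM without, above 0 where Ddit4 was below (0.56 ± 0.17, SE, adjusted p = 0.106 by edgeR). The other glutathione peroxidases did not share one sign, with 0.38 ± 0.15 for Gpx3, 0.33 ± 0.22 for Gpx8 and -0.14 ± 0.16 (SE) for Gpx7, which were looked up after the values of Gpx4 were seen. Sesn3, the third sestrin, had a log2 fold change of -0.09 ± 0.17 (SE). Fdx1, a ferredoxin that takes electrons from Fdxr, had -0.10 ± 0.19 (SE). Rrm1 and Rrm2, the large subunit and the S-phase small subunit of ribonucleotide reductase, had -0.08 ± 0.090 and -0.11 ± 0.084 (SE). Per kb, Rrm2 was at 226.2 CPM per kb without dox, far above the 1.29 of Rrm2b.

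The other arms of the p53 response are described by lists written, like the 8 genes, with earlier results of these data known. Trp53, the gene of p53, was at 1060 and 1093 CPM with dox and 808.8 and 815.5 CPM without (log2 fold change 0.41 ± 0.079, SE, adjusted p = 0.0211 by edgeR). Mdm2 was at 292.7 and 283.0 CPM with dox and 205.7 and 222.3 CPM without (0.43 ± 0.090, SE, adjusted p = 0.0289 by edgeR). Neither was called by edgeR without a block, and both were called higher by DESeq2. With the replicate number as a block, in which 3.92% of all genes were called, edgeR called both higher. Of 13 targets that act in arrest and repair, 9 were higher and 4 lower, with a median log2 fold change of 0.28. edgeR called 0 of the 13 without a block and 4 higher with it, and DESeq2 called 4 higher (Cdkn1a, Ccng1, Gtse1 and Phlda3). An unadjusted p under 0.05 by edgeR was reached by 8, of which 7 were higher and 1, Gadd45a, lower (-0.41 ± 0.15, SE). Cdkn1a, the cell cycle inhibitor p21, was at 261.4 and 260.6 CPM with dox and 190.3 and 189.9 CPM without (0.46 ± 0.087, SE), and Phlda3, an inhibitor of Akt, had the lowest p of the list (0.51 ± 0.096, SE, adjusted p = 0.0190 by edgeR). Of 13 apoptosis targets, 10 were higher and 3 lower, with a median of 0.25. Both tools called 0 of these, with 5 at an unadjusted p under 0.05 by edgeR, and Pidd1, an adaptor for caspases, had the lowest p (0.44 ± 0.11, SE). The median of the 8 redox and metabolic genes was below 0 and those of the arrest and apoptosis lists above it, and whether the lists differ was not tested. Of 12 other metabolic genes tied to p53, 8 were higher and 4 lower, with a median of 0.05. edgeR and DESeq2 called 0 of them, with 3 at an unadjusted p under 0.05 by edgeR, led by Cpt1c, a brain-type carnitine palmitoyltransferase (0.45 ± 0.11, SE).

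Ddit4 is also a hypoxia gene, and among the stress and metabolic lists set beside the 8 genes, the hypoxia response genes alone held a call by edgeR without a block. With the replicate number as a block, 12 of the hypoxia genes were called, all lower. The NRF2, epoxide, mTORC1 and ATF4 lists then had 1 call each. Of the 19 hypoxia genes, 17 were lower and 2 higher with dox, the median log2 fold change was -0.75, and 5 were called lower and 0 higher. DESeq2 called 11 of the 19, all lower. The 5 were Egln3, a prolyl hydroxylase that marks HIF1 for degradation (-1.99 ± 0.19, SE), Ndrg1 (-1.42 ± 0.16), Bnip3, which promotes mitophagy (-1.32 ± 0.16), Pfkfb3, which drives glycolysis (-0.85 ± 0.12), and Pdk1, which closes the entry of pyruvate into the citric acid cycle (-0.75 ± 0.11). Like Ddit4, each had the larger decrease in replicate 2. Bnip3 had a log2 ratio of -1.11 in replicate 1 and -1.54 in replicate 2, Ndrg1 of -1.02 and -1.81, Egln3 of -1.76 and -2.15, Pdk1 of -0.51 and -0.98, and Pfkfb3 of -0.62 and -1.07. The median of the list was -0.51 within replicate 1 and -1.01 within replicate 2. The summed level of the 19 was 1342 and 1368 CPM with dox and 1806 and 2367 CPM without, so the −dox libraries lay further apart. The part of the hypoxia response in the lower level of Ddit4 was not tested.

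Ephx1 was set beside the fibroblast markers, since the feeder cells are fibroblasts. The markers had a median log2 fold change of 1.26, of 1.74 within replicate 1 and of 0.37 within replicate 2, and 23 of the 24 were higher with dox. edgeR and DESeq2 called 0 of the 24, although 19 had an unadjusted p under 0.05 by edgeR. Once the replicate number was added as a block, 16 of the 24 were called higher by edgeR, where 3.92% of all genes were called. Col1a1, a collagen chain, was at 246.5 and 94.9 CPM with dox and 66.6 and 67.7 CPM without, and Col1a2 at 149.0 and 57.4 CPM with dox and 35.6 and 37.4 CPM without. Thy1 was at 45.9 and 31.2 CPM with dox and 27.6 and 23.3 CPM without, and Lum had 12 counts or fewer in every library. Postn had a log2 fold change of 2.03 ± 0.47 and Dcn of 1.65 ± 0.40 (SE). Without +dox replicate 1 the median of the markers was 0.36, and Ephx1 was at 0.73. Which cells the marker RNA came from was not tested, and neither was its part in the Ephx1 difference.

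**Figure D3:**
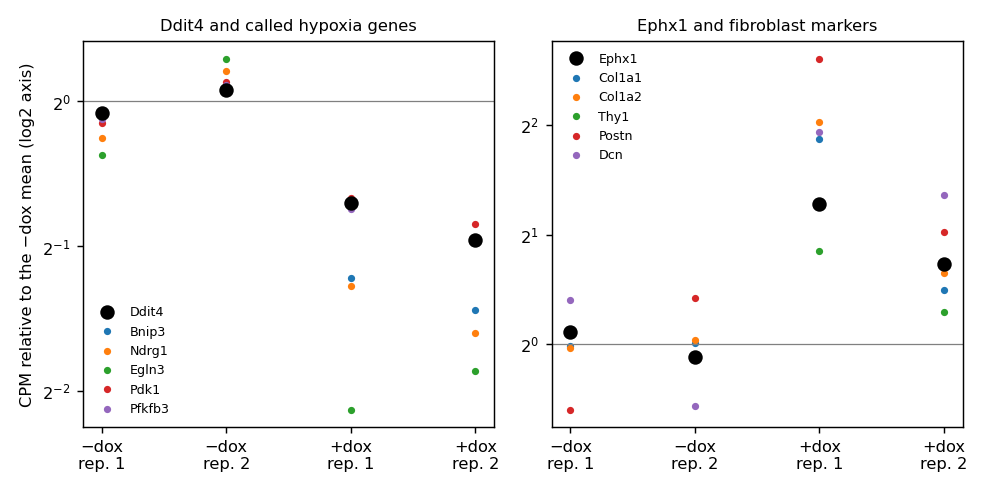
CPM in each library divided by the mean of the −dox libraries (log2 axis), for Ddit4 and the 5 called hypoxia genes (left) and for Ephx1 and 5 fibroblast markers (right). Ddit4 lies below the −dox mean in both +dox libraries, as the hypoxia genes do, whereas the collagen genes Col1a1 and Col1a2 are high mainly in +dox replicate 1, where Ephx1 is also at its highest, 68.7 CPM.

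The remaining lists, each built around the step at which a member acts, had medians near 0, with single genes further off on either side. Of 22 peroxide and glutathione genes around Gpx1, 11 were higher and 11 lower (median log2 fold change -0.002). edgeR and DESeq2 called 0 of the 22, with 4 at an unadjusted p under 0.05 by edgeR, and the lowest p was that of Txn2, mitochondrial thioredoxin (0.33 ± 0.10, SE). Of 19 NRF2 targets, 10 were higher and 9 lower (median 0.10, and -0.019 without +dox replicate 1). This list shares Gclc, Gclm, Srxn1 and Txnrd1 with the peroxide and glutathione genes. It shares Slc7a11 with the ATF4 list and with the other metabolic genes tied to p53. edgeR called 0, with 4 at an unadjusted p under 0.05, and DESeq2 called 1, the glutathione conjugate exporter Abcc1, lower (-0.47 ± 0.10, SE). Of 11 epoxide and xenobiotic genes around Ephx1, 5 were higher and 6 lower (median -0.04). edgeR and DESeq2 called 0, with 2 at an unadjusted p under 0.05 by edgeR, led by Ephx4 (-1.35 ± 0.40, SE) at 13 to 45 counts per library.

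Of 22 genes that control mTORC1 and AMPK, the step of Ddit4 and the sestrins, 10 were higher and 12 lower (median -0.009). edgeR called 0, with 3 at an unadjusted p under 0.05, and DESeq2 called 1, the mTORC1 inhibitor Akt1s1, higher (0.43 ± 0.093, SE). Of 15 ATF4 response genes, 9 were higher and 6 lower (median 0.03). edgeR called 0, with 7 at an unadjusted p under 0.05, 4 higher and 3 lower, against 17.8% of all genes in either direction. DESeq2 called 1, the stress-induced chromatin protein gene Nupr1, higher. Nupr1 was at 28.1 and 15.0 CPM with dox and 8.97 and 10.9 CPM without, so it too was highest in +dox replicate 1, and without that library its log2 fold change was 0.59 in place of 1.12.

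Of 11 glutamine genes around Gls2, 5 were higher and 6 lower (median -0.01), and edgeR and DESeq2 called 0, with 3 at an unadjusted p under 0.05 by edgeR, led by Gpt2 (-0.40 ± 0.13, SE). Of 12 genes of deoxynucleotide supply around Rrm2b, 4 were higher and 8 lower (median -0.06), and edgeR and DESeq2 called 0, with 1 at an unadjusted p under 0.05 by edgeR, Dtymk, thymidylate kinase (0.24 ± 0.11, SE). Of 13 ferredoxin and iron-sulfur genes around Fdxr, 6 were higher and 7 lower (median -0.03), and edgeR and DESeq2 called 0, with 0 at an unadjusted p under 0.05 by edgeR. Gpx1, Gls2, Fdxr and Rrm2b were therefore set beside lists that showed no call by either tool.

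**Figure D4:**
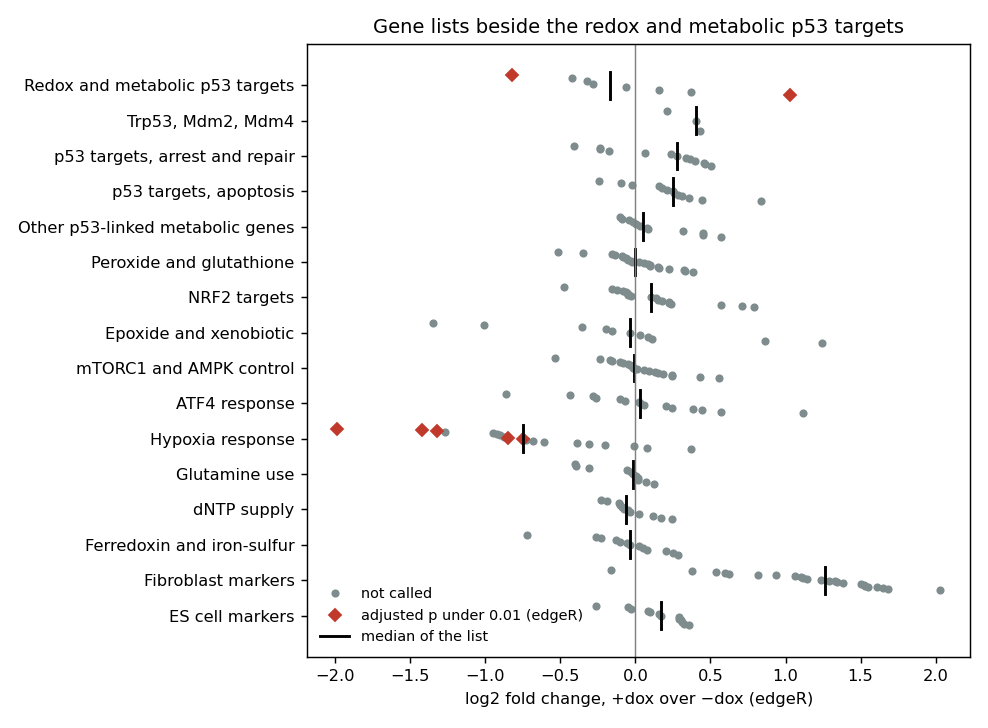
log2 fold change (edgeR, +dox over −dox) of each gene of the 8 redox and metabolic p53 targets (top line) and of the lists set beside them, with red diamonds for genes called at an adjusted p under 0.01, grey points for the others and a black bar at the median of each list. The 8 genes hold 1 called gene on each side of 0, the hypoxia genes have their median at -0.75 with 5 called lower, and the fibroblast markers have theirs at 1.26 with no call.

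Genes that mark cell state were also compared. The 13 ES cell markers had a median log2 fold change of 0.17, with 10 higher and 3 lower. edgeR and DESeq2 called 0 of them, with 7 at an unadjusted p under 0.05 by edgeR, led by Utf1 (0.30 ± 0.084, SE). Once the replicate number was added as a block, edgeR called 4 of the 13 higher. All 10 primitive streak markers were lower with dox (median -2.04), and 6 were called lower by edgeR, T, Eomes, Mixl1, Lhx1, Cer1 and Fgf8, with log2 fold changes from -5.55 to -1.71. The value of -5.55 was that of Cer1, which had 3 and 2 counts in the +dox libraries, where Mixl1 had 6 and 12. The sizes of those fold changes are therefore poorly measured. The summed level of the 10 markers was 39.1 and 39.0 CPM with dox and 163.5 and 188.5 CPM without. The part of this difference in the lower level of Ddit4 was not tested. edgeR with the replicate number as a block, in which 3.92% of all genes were called, called 3 of the 8 redox and metabolic genes: Ephx1, Ddit4 and Gpx1. The replicate number rests on the labels alone. p-values from 2 libraries per condition know only the spread between those libraries, which both tools share in part across genes.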

How the data were processed

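Polyadenylated RNA of clone A2 was sequenced from 2 +dox and 2 −dox cultures with a directional kit. Per the paper's methods, the authors used cutadapt for trimming, TopHat2 for alignment to mm9 and HOMER for the number of unique exon reads of each gene, once PCR duplicates had been taken out. The authors deposited these raw counts, not normalized, as 1 table per replicate, with the exon length of each transcript in bases. Tool versions and use of strand are not given in the sources used here.

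Tables were joined by symbol, because 547 genes had a different transcript in them, though none of the 8 members did. Groups follow the sample labels. The 20044 genes that had 1 count or more in any of the 4 libraries, which were between 22899107 and 30206085 counts deep, were tested with edgeR 4.0.16 (R 4.3.3; TMM, quasi-likelihood, no replicate block), with Benjamini-Hochberg adjustment and a threshold of 0.01. DESeq2 1.42.0 was the alternative. Other alternatives were a block for the replicate number, scaling by total counts or by the size factors of DESeq2, filterByExpr, adjusted deviances, the likelihood ratio test, a threshold of 0.05, leaving out each library and levels without length. Ratios within replicates carry 95% exact (Clopper-Pearson) intervals, which cover counting error only. The test was tested on simulated data. Replicates were compared by a chi-square per degree of freedom (19.2 for +dox, 13.2 for −dox), so no pair agreed within sampling noise.

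The members and gene lists were chosen with earlier results of these data known. Genes named are the members, their paralogues and partners, Trp53, Mdm2, Cdkn1a, 6 fibroblast and 3 ES cell markers, and in each list the genes at an adjusted p under 0.01 or else that with the lowest p; some of these genes are not reported here. Ctcf, Spryd4, Gadd45a, Gpx3, Gpx7, Gpx8 and the genes DESeq2 alone called were added after the values were seen. Promoters are from RefSeq. ChIP-seq and Hi-C samples were not used here.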

Additional observations from a re-analysis of the deposited data

How the results depend on the processing

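Of the 8 genes, 2 were called (Ephx1 and Ddit4). With total counts in place of TMM 1 was called (Ddit4; Ephx1 had an adjusted p = 0.0180 by edgeR), and with edgeR's filterByExpr or with adjusted deviances 0 were (Ddit4 0.0307 and 0.0938, Ephx1 0.0526 and 0.132). Leaving out 1 library gave 0 to 2 calls, with both lost without −dox replicate 1 (adjusted p = 0.550 by edgeR for each) or −dox replicate 2 (0.670 for each); the lone library of a condition is then assumed to vary like the pair of the other. Over those omissions the log2 fold change ran from 0.73 to 1.28 for Ephx1 and from -0.96 to -0.70 for Ddit4, and from -0.24 to 0.13 for Fdxr, the one gene of the 8 whose sign turned under any alternative.

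Of all genes 120 were called, against 375 with DESeq2, 457 with the likelihood ratio test, 573 at a threshold of 0.05, 11 with filterByExpr, 0 with adjusted deviances and 0 to 992 with 1 library left out. With the replicate block 786 genes were called and Gpx1 joined the 2 members (adjusted p = 0.00588 by edgeR); same-numbered libraries deviated together with a correlation across genes of 0.196, and the numbers are not stated to mark a shared culture. The hypoxia list had 0 calls with filterByExpr, with adjusted deviances and without either −dox library. The causes were not tested. At 2 libraries a condition, a change in the less abundant Rrm2b or Sesn1 is the least well measured.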
